A study of Mus musculus with 6 samples.

Results

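Malat1, Neat1, Meg3, Kcnq1ot1 and H19 are long noncoding RNAs, transcripts without a known protein product, that are retained in or act in the nucleus, or come from an imprinted cluster. They were taken by symbol, with no threshold on a measured value, from gene count tables of cultured mouse lung endothelial cells. Of these 5 genes, 4 had a row among the 33006 features counted, and 2 (Malat1 and Neat1) passed the filter on low counts that left 12924 genes to test. Kcnq1ot1 had no row under its symbol. The collective description as abundant held for Malat1 alone: by mean normalised read count Malat1 ranked 700 among the features, Neat1 8087, H19 had at most 13 reads in a library, and Meg3 had none.

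Malat1 is a transcript of nuclear speckles, the bodies where splicing factors gather, and it is among the best studied long noncoding RNAs of endothelium. Neat1, transcribed from the neighbouring locus, is the scaffold of paraspeckles, bodies that hold the RNA-binding proteins Nono, Sfpq and Pspc1; only its long isoform builds them. Meg3, H19 and Kcnq1ot1 belong to imprinted clusters, where the allele of 1 parent is transcribed: Meg3 and H19 from the maternal chromosome, and Kcnq1ot1, an antisense RNA inside Kcnq1 that silences its neighbours, from the paternal chromosome.

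The cells were primary pulmonary endothelial cells from C57BL/6 mice, grown to 80% confluence. The control group of 3 libraries received water, and the H2O2 group of 3 libraries received hydrogen peroxide at 300 uM for 6 h. An mRNA sequencing kit was used on 100 ng total RNA per library; the sources used here do not state how RNA with a poly(A) tail was selected, or the age and sex of the animals. Whether the 3 numbered libraries of a group stem from different cultures or mice is not stated in the labels; each p-value therefore reflects library-to-library spread only, possibly technical.

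The libraries held 22455388 to 27618679 reads assigned to genes. All 10 endothelial markers were in the tables, with a summed normalised read count (in CPM, scaled to a common library size) of 4316 to 4402 in controls and 4568 to 4596 with H2O2; 4 of the 9 that could be tested were higher and 0 lower, where 9.7% of all tested genes were higher and 10.8% lower. Summed fibroblast markers reached 26.96 to 28.74 CPM and 24.88 to 28.0 CPM, mostly from Dcn, with Col1a2 and Tcf21 at 0. Leukocyte markers summed to 157.5 to 164.2 CPM and 162.9 to 169.9 CPM, nearly all from Cd68, with Cd3e at 0. Mural, epithelial and mesothelial markers stayed under 6 CPM in sum, with Sftpc, Scgb1a1 and Nkx2-1 at 0. Only 3 fibroblast, 3 mural, 2 epithelial, 2 leukocyte and 1 mesothelial marker could be tested, and none passed. In such bulk samples fewer cells of a type and less RNA per cell cannot be told apart.

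Malat1 lies on the minus strand of mouse chromosome 19 (mm10, chr19:5795690-5802672, ENSMUSG00000092341.3, 6983 exonic bases), and Neat1 on the same strand 22035 bases away (chr19:5824708-5845478, ENSMUSG00000092274.3, 20771 exonic bases). Their ends are shown because they differ in the poly(A) tail. The mature Malat1 and the long Neat1 transcript carry no poly(A) tail and are closed by a triple helix of U-rich and A-rich stretches. The short Neat1 transcript, by contrast, is polyadenylated. What these ends mean for the counts was not tested. In the Malat1 structure and the long Neat1 end, capitals mark the 3 runs of at least 10 bases that the last 100 bases of the long Neat1 transcript share with the last 400 bases of Malat1: TTTCTTTTCCTGA, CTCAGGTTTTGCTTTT and AAAAAGCAAAA. On the transcript strand each occurs 1 time in either gene's long transcript and 0 times in the short Neat1 transcript. In the tRNA-like stretch, which is cut from the Malat1 precursor to give the small cytoplasmic mascRNA, capitals mark GGTTCAA. In the short Neat1 transcript they mark the polyadenylation signal AATAAA. The stretches are, in order, chr19:5795982-5796075, chr19:5795924-5795981, chr19:5824708-5824807 and chr19:5842307-5842366, all minus strand of mm10 with GENCODE M21 transcripts.
Malat1 3′ structure: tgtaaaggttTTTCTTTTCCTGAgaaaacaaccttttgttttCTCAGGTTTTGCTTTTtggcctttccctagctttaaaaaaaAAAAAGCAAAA
Malat1 tRNA-like stretch: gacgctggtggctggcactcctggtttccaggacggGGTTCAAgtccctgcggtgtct
Neat1 long transcript end: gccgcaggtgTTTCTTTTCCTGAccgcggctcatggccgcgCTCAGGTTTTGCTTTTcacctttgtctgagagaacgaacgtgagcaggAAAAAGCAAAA
Neat1 short transcript end: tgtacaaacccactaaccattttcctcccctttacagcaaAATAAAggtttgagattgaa

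The A-rich stretch of Malat1 holds a genome-encoded run of 12 A, the longest in its annotated transcript; the longest run of A in the long Neat1 transcript is 7 bases. The annotated Malat1 transcript goes on for 292 bases past the triple helix, to an AATAAA 16 bases before its end. The short Neat1 transcript has its AATAAA 14 bases before its annotated end. Counts per gene do not separate the isoforms of Neat1, so the long and the short transcript were measured together.

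Malat1 was higher after H2O2. Its normalised read counts were 269.5, 237 and 227.5 CPM in the control libraries and 323, 295 and 265 CPM in the H2O2 libraries, from 5081 to 8400 reads. The groups overlapped by 1 library on each side, since control 1 exceeded H2O2 3; the remaining H2O2 libraries were above every control. The means were 245 ± 22.0 CPM and 295 ± 29.1 CPM (SD, n = 3 each), a rise of 20.4%. The log2 fold change was 0.27 (SE 0.0519, 95% interval 0.16 to 0.37), with an edgeR quasi-likelihood adjusted p of 0.000438 (Benjamini-Hochberg, over all genes tested). By that test 9.7% of all tested genes were higher, and the change of Malat1 stood above that of 93.1% of them. With DESeq2 the log2 fold change was again 0.27 (SE 0.11) but the adjusted p was 0.0675 and the call was lost; over all alternatives the adjusted p ranged from 1.52e-15 to 0.0675.

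Neat1 did not pass the test. Its 3 control libraries held 24.0, 14.8 and 15.1 CPM, and its H2O2 libraries 17.4, 17.5 and 15.5 CPM, from 338 to 602 reads. Control 1 stood alone above the other 5 libraries, which lay between 14.8 and 17.5 CPM. The means were 18.0 ± 5.2 CPM and 16.8 ± 1.11 CPM (SD, n = 3 each), and the log2 fold change was -0.10 (SE 0.114, 95% interval -0.34 to 0.13, edgeR adjusted p = 0.59). Its change lay above that of 22.4% of all tested genes. Without control 1 the direction turned, to 0.17 (edgeR adjusted p = 0.139), and without both libraries numbered 1, an alternative chosen after the data were seen, it was 0.14 (edgeR adjusted p = 0.327).

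**Figure D1:**
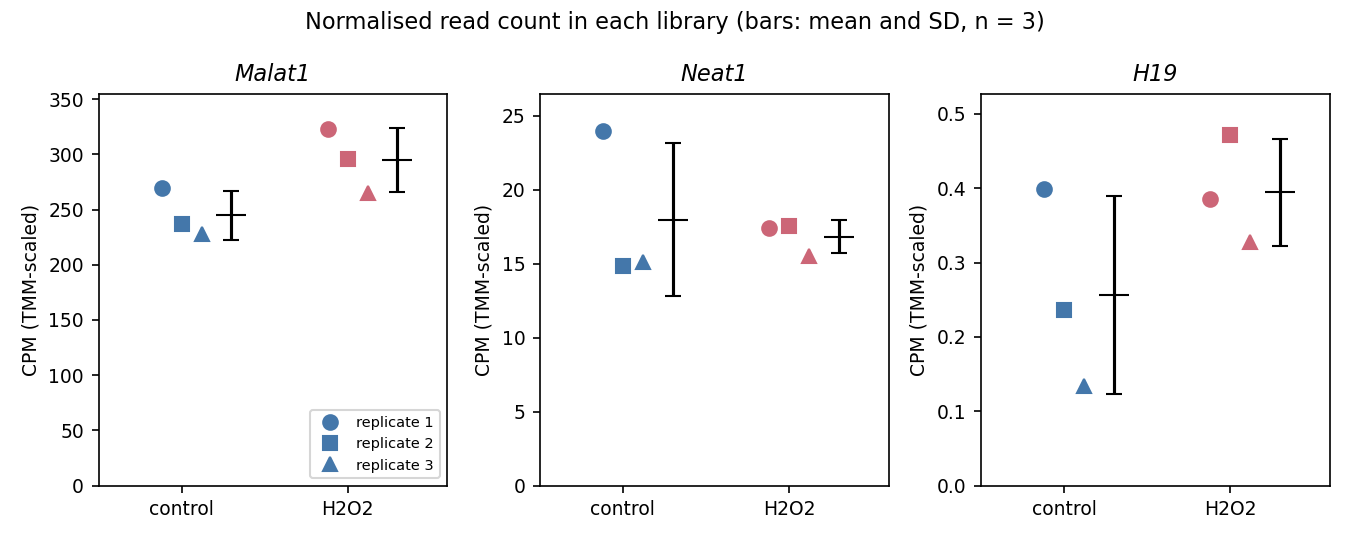
Normalised read count (CPM, vertical axis from 0) of Malat1, Neat1 and H19 in the 3 control and 3 H2O2 libraries; symbols mark the library number, and the bars give mean and SD. Malat1 overlaps between groups by control 1 and H2O2 3, and control 1 stands apart for Neat1.

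**Figure D2:**
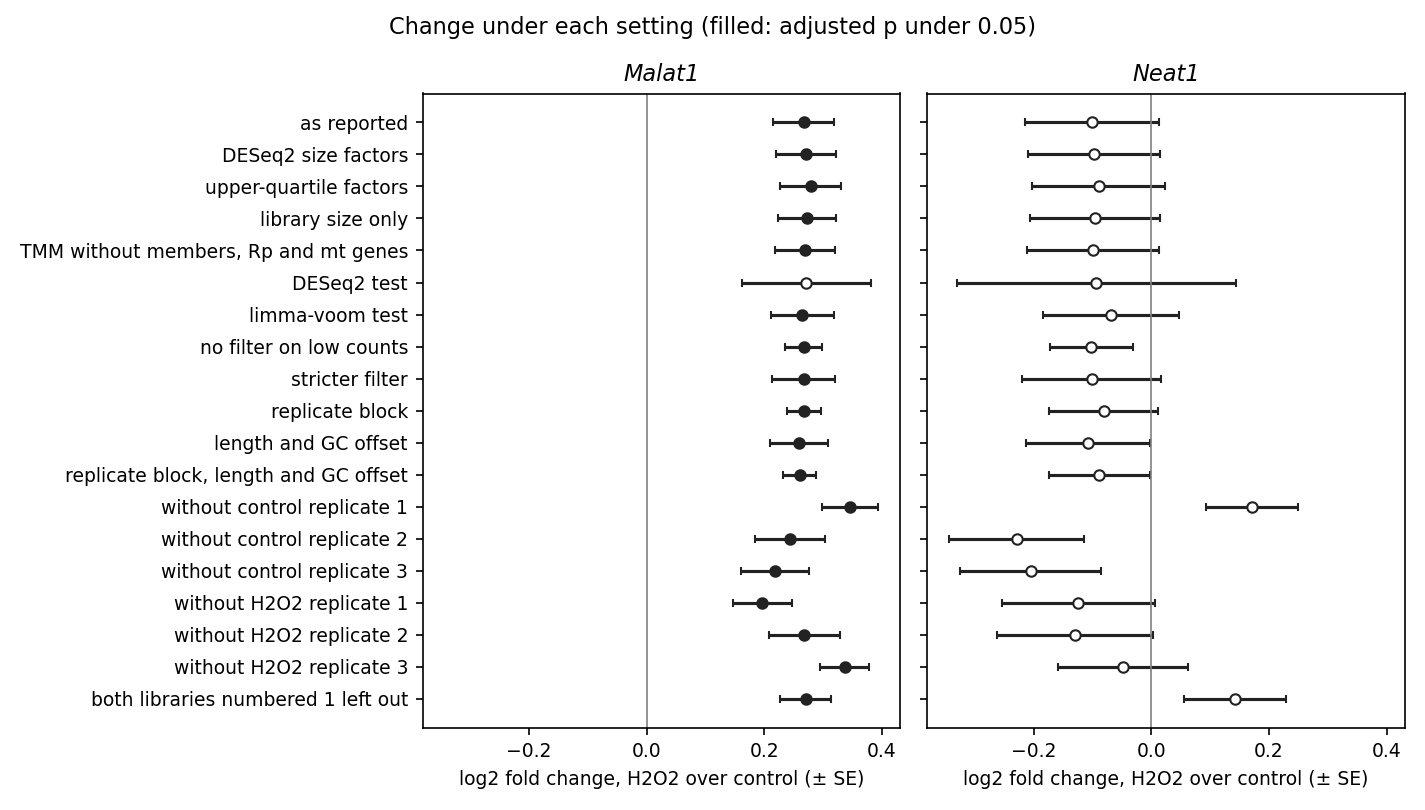
The log2 fold change (H2O2 over control, with its SE) of Malat1 and of Neat1 under each setting, filled where the adjusted p was under 0.05. Malat1 lies between 0.20 and 0.35 and is open for DESeq2 alone, while Neat1 is open throughout and lies above 0 where control 1 was left out.

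The balance of both neighbours within a library does not depend on depth or scaling. There were 11.2, 16.0 and 15.0 Malat1 reads per Neat1 read in the controls and 18.6, 16.8 and 17.1 with H2O2. Every H2O2 library thus had a higher ratio than every control, and means of 14.1 ± 2.53 and 17.5 ± 0.964 (SD, n = 3 each). The two-sided exact permutation test gave p = 0.1, which is the smallest value that 3 against 3 libraries allow. Among all tested genes, 34.6% had their 3 H2O2 libraries on 1 side of all controls in normalised count, so such a separation was common here.

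Levels of the genes relative to each other were set per length, as CPM per kilobase of annotated exon (RPKM), with no test. Malat1 came first with 35.0 ± 3.15 RPKM in controls and 42.2 ± 4.17 with H2O2, and Neat1 followed with 0.866 ± 0.25 and 0.81 ± 0.0537 RPKM. H19 had 0.104 ± 0.0542 and 0.16 ± 0.0292 RPKM, and Meg3 had 0 (SD, n = 3 each). This order held in each group, and neighbours in it stood apart by more than their spread. On this scale Malat1 was 40.5 times Neat1 in controls and 52.1 times with H2O2, as ratios of the group means. The Neat1 control mean includes control 1 at 1.155 RPKM, against 0.715 in control 2 and 0.729 in control 3. If all Neat1 reads are set on its short transcript of 3004 bases, a length chosen after the data were seen, the ratios were 5.85 and 7.53. Malat1 took 0.0226 to 0.0323% of the reads assigned to genes.

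H19, the maternally expressed RNA next to the growth factor gene Igf2, was present at trace level. The tables gave it 10, 6 and 3 reads in controls and 10, 13 and 9 reads with H2O2, so the groups overlapped. In sum this was 19 reads in controls, or 0.256 ± 0.133 CPM, and 32 reads with H2O2, or 0.395 ± 0.0718 CPM (SD, n = 3 each). The exact 95% Poisson intervals of the sums, which cover counting error only, were 0.157 to 0.406 CPM and 0.271 to 0.559 CPM and overlap. Without the filter on low counts the log2 fold change was 0.60 (SE 0.517, edgeR adjusted p = 0.548), so a difference was not detectable at this depth. Igf2, which lies 72622 bases from H19 (chr7:142575529-142578143, minus strand, ENSMUSG00000000031.16), had 0 reads in each control and 2 reads in each H2O2 library, and Ins2 had 0 throughout.

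H19 is also the host of miR-675, for which the 2 mature arms are printed with the seed, bases 2 to 8, in capitals, from RefSeq (GRCm38.p6, chr7:142577112-142577133 and chr7:142577078-142577099, minus strand). The seeds differ between the arms. The row of Mir675 had 0 reads in all 6 libraries, in libraries not made for small RNAs.
mmu-miR-675-5p: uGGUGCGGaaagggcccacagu
mmu-miR-675-3p: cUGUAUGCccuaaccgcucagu

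Meg3, the maternally expressed RNA of the Dlk1-Dio3 cluster (chr12:109541001-109571726, plus strand, ENSMUSG00000021268.17, 11 transcripts), had 0 reads in all 6 libraries. Read as a one-sided limit, a count of 0 allows up to 3 reads in a group, or 0.0411 CPM in controls and 0.0371 CPM with H2O2; the two-sided exact 95% Poisson intervals, as given for H19, reach 0.0505 and 0.0457 CPM. The rest of its cluster was as empty: the noncoding Rian, which starts 32213 bases further on, and Mirg, the microRNA genes Mir770 and Mir1906-1, the retrotransposon-derived Rtl1 and the deiodinase gene Dio3 had 0 reads in each library, and Dlk1 had 1 read in control 2.

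Kcnq1ot1 (chr7:143203458-143296549, minus strand, ENSMUSG00000101609.2, 93092 bases in 1 exon) has no row of its own, so its level was not analysed here. It lies inside the potassium channel gene Kcnq1 on the other strand (chr7:143106362-143427042). Kcnq1 had 1364, 1339 and 1125 reads in controls and 1492, 1431 and 1457 with H2O2, with a log2 fold change of 0.04 (edgeR adjusted p = 0.554). Exons of genes on the other strand cover 2.96% of the exonic bases of Kcnq1. Since the strand setting of the counting is not given, reads of the sense and the antisense transcript there cannot be told apart.

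The tables also hold 13 rows named after these genes in capitals, such as KCNQ1OT1_1 or MALAT1. The 4 rows of the KCNQ1OT1 series had 0 to 5 reads in a library and summed to 16 reads in controls and 17 with H2O2. The other 9, for MALAT1, NEAT1, MEG3 and H19, had 0 in every library. They could not be matched by identifier or position and were not counted with the genes. GENCODE M21 lists unnamed small RNA features inside each of the 5 genes, and where 2 features cover the same bases the counting can set reads aside as ambiguous. Such same-strand features cover 1.23% of the Malat1 exon, and 6.49% lies under an exon on the other strand.

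Of 20 genes of the imprinted clusters around H19, Kcnq1ot1 and Meg3, all were in the tables and 6 could be tested; 1 was higher, 2 were lower and 3 did not pass, with a median log2 fold change of 0.03 against 0.00 over all tested genes. Of all tested genes 20.5% were called, 9.7% as higher and 10.8% as lower. Cd81, a tetraspanin of the cell surface, rose from 237.5 ± 4.3 to 272 ± 6.29 CPM (log2 fold change 0.20, SE 0.0298, edgeR adjusted p = 2.1e-05). Osbpl5, a lipid transfer protein, fell from 16.7 ± 1.73 to 13.9 ± 1.04 CPM (edgeR adjusted p = 0.0188). The histone chaperone gene Nap1l4 fell from 187 ± 6.43 to 174 ± 5.48 CPM (edgeR adjusted p = 0.0274). Cdkn1c, a growth-restraining cell cycle inhibitor of the Kcnq1ot1 domain, had 8.58 ± 0.799 and 9.23 ± 0.978 CPM and did not pass (SD, n = 3 each). Neither of the 2 genes called lower was called when control 3, H2O2 1 or H2O2 3 was left out.

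Genes for proteins of the bodies that Malat1 and Neat1 belong to were then read in the same test. These are RNA counts, and protein was not measured. Of 20 genes of paraspeckle proteins, all tested, 6 were lower, 0 higher and 14 did not pass. Their median log2 fold change was -0.04, and 10.8% of all tested genes were lower. Most genes of this list, and of the speckle and neighbour lists below, had a mean log2 CPM of at least 4. At that level 1272 of 8288 genes were lower and 28.2% were called in either direction. Smarca4, the ATPase of the SWI/SNF chromatin remodeller, fell from 446.5 ± 2.25 to 401 ± 3.3 CPM (log2 fold change -0.16, SE 0.0272, edgeR adjusted p = 0.000126). Taf15, an RNA-binding protein, fell from 179.7 ± 10.5 to 160.2 ± 10.8 CPM (edgeR adjusted p = 0.00479), with H2O2 1 above control 2. Hnrnpa1, a splicing repressor, fell from 798 ± 6.49 to 750.2 ± 28.0 CPM (edgeR adjusted p = 0.0267). Among the genes of the core proteins, Nono was called lower with a log2 fold change of -0.09 (edgeR adjusted p = 0.0438). This call lay close to the threshold and was not followed over the alternatives. Sfpq at -0.01 and Pspc1 at 0.03 did not pass. Leaving out single libraries gave 3 to 7 lower paraspeckle genes, with 3 when control 1, control 3 or H2O2 3 was left out. Taf15 was not called without control 1, nor Hnrnpa1 without control 2, control 3, H2O2 2 or H2O2 3.

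Of 20 genes of nuclear speckle proteins, all tested, 4 were lower, 0 higher and 16 did not pass. Their median log2 fold change was -0.04. Of all tested genes 10.8% were lower and 20.5% called in either direction, so the share called was near the background. Acin1, a component of the exon junction complex, fell from 187 ± 12.2 to 169 ± 7.12 CPM (SD, n = 3 each; log2 fold change -0.15, SE 0.039, edgeR adjusted p = 0.00744). Sart1, Son and Ddx39b, all with roles in splicing or mRNA export, had log2 fold changes of -0.10, -0.08 and -0.08, with edgeR adjusted p-values of 0.0381, 0.043 and 0.0496. The count was 0 without control 1, when Acin1 was not called either, and at most 3 when any other single library was left out. With other scalings it was 1 or 2. Of 18 alternatives, Sart1 kept its call in 7, Son in 6 and Ddx39b in 2.

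Among 19 genes around Malat1 and Neat1 on chromosome 19, 16 were in the tables and 14 could be tested; 3 were lower, 0 higher and 11 did not pass, with a median log2 fold change of -0.04. This share called was near the 20.5% of all tested genes, of which 10.8% were lower. Ehbp1l1, a membrane traffic protein, fell from 189.7 ± 3.98 to 171 ± 1.78 CPM (SD, n = 3 each; log2 fold change -0.15, SE 0.0306, edgeR adjusted p = 0.00095). Dpf2, a subunit of a chromatin remodeller, and Capn1, a calpain protease, had log2 fold changes of -0.10 and -0.09 (edgeR adjusted p = 0.0281 and 0.0424). Frmd8, the nearest coding gene on the Neat1 side, did not pass, with -0.01. The count of lower neighbours was 1 or 2 when single libraries were left out, and 1 with DESeq2; Ehbp1l1 was called in all 18 alternatives.

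**Figure D3:**
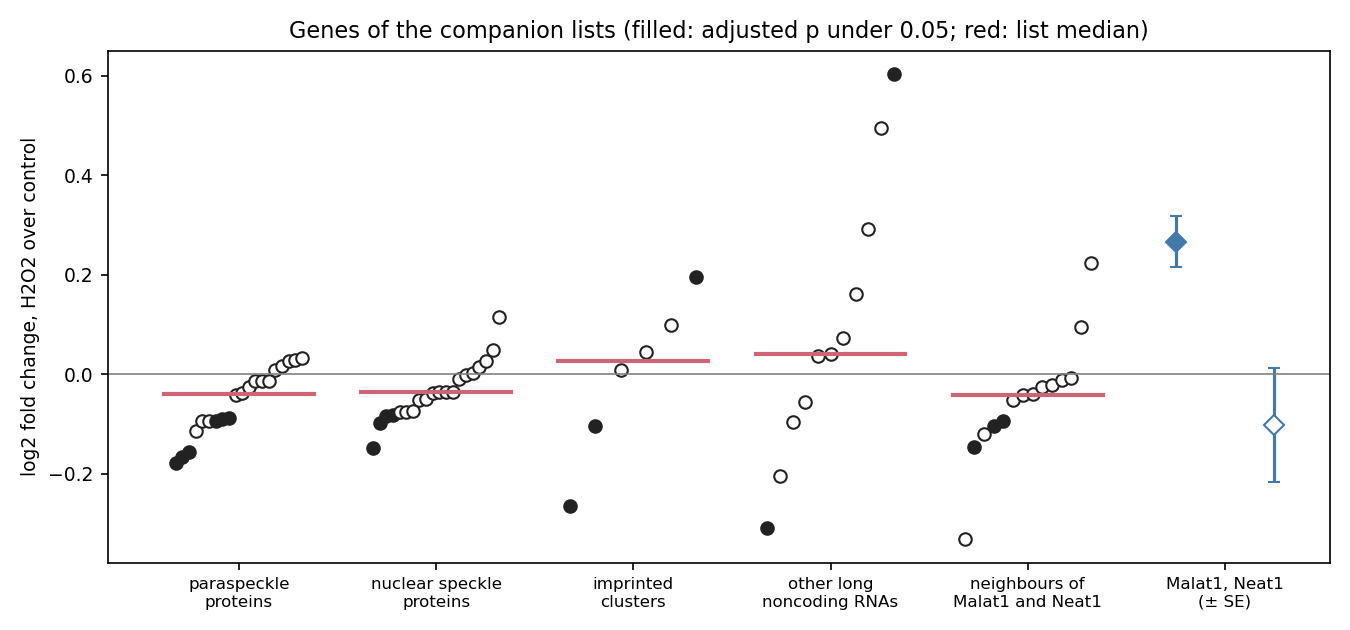
The log2 fold change (H2O2 over control) of each tested gene of the companion lists, filled where the adjusted p was under 0.05, with the list median in red, beside Malat1 and Neat1 with their SE. The filled points of the paraspeckle, speckle and neighbour lists lie below 0, and that of Malat1 at 0.27.

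Of 25 further long noncoding RNAs with a known role, 14 were in the tables and 11 could be tested; 1 was higher, 1 lower and 9 did not pass, with a median log2 fold change of 0.04, a share called near the 20.5% of all tested genes. The row 2900097C17Rik, a symbol that RefSeq lists as a synonym of the Pumilio decoy Norad but also of Bscl2, rose from 2.03 ± 0.43 to 3.08 ± 0.405 CPM (log2 fold change 0.60, SE 0.179, edgeR adjusted p = 0.0164). It was not called without control 2, control 3 or H2O2 3. Gm26917 fell from 208 ± 12.3 to 168 ± 16.1 CPM (log2 fold change -0.31, SE 0.0477, edgeR adjusted p = 2.76e-05). Its locus on chromosome 17 (chr17:39843013-39846341) holds ribosomal RNA-like sequence, so its row may count ribosomal RNA, which was not tested. Without Gm26917 the list had 10 tested genes, 1 higher and 0 lower.

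Malat1 and Neat1 were also placed among the tested genes that RefSeq types as long noncoding RNAs. Of all tested genes 91.6% had a RefSeq symbol, so this class can miss some. Of 359 such genes tested, 18 were higher and 1 was lower, which is 5.29% called against 20.5% of all tested genes. Their median log2 fold change was 0.05 and their median level was low, at a log2 CPM of 0.52 against 4.95 over all tested genes. At a mean log2 CPM of at least 4 there were 19 of them, with 6 higher and 1 lower, beside 28.2% called of the 8288 genes at that level. Malat1 was the most abundant by CPM and Neat1 the 17th. Gas5, a growth-arrest RNA that hosts small nucleolar RNAs, was the next in level within the class. It had 126 ± 9.07 and 125 ± 1.29 CPM and did not pass. Snhg6, another such host, was higher, at 65.3 ± 5.34 and 80.3 ± 5.36 CPM (SD, n = 3 each; log2 fold change 0.30, SE 0.0507, edgeR adjusted p = 8.26e-05). Tug1, a nuclear RNA, had 57.8 ± 1.2 and 60.8 ± 2.77 CPM and did not pass (edgeR adjusted p = 0.248). The single gene called lower was Gm15564, with a log2 fold change of -0.83 (edgeR adjusted p = 8.91e-05); DESeq2 called 0 lower, and 3 were lower without control 2 and 3 without H2O2 2. The count of higher long noncoding RNAs was 8 with DESeq2, 9 without control 2 and 10 without control 3. Gas5, Snhg6, Tug1 and Gm15564 were picked after their values were seen.

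**Figure D4:**
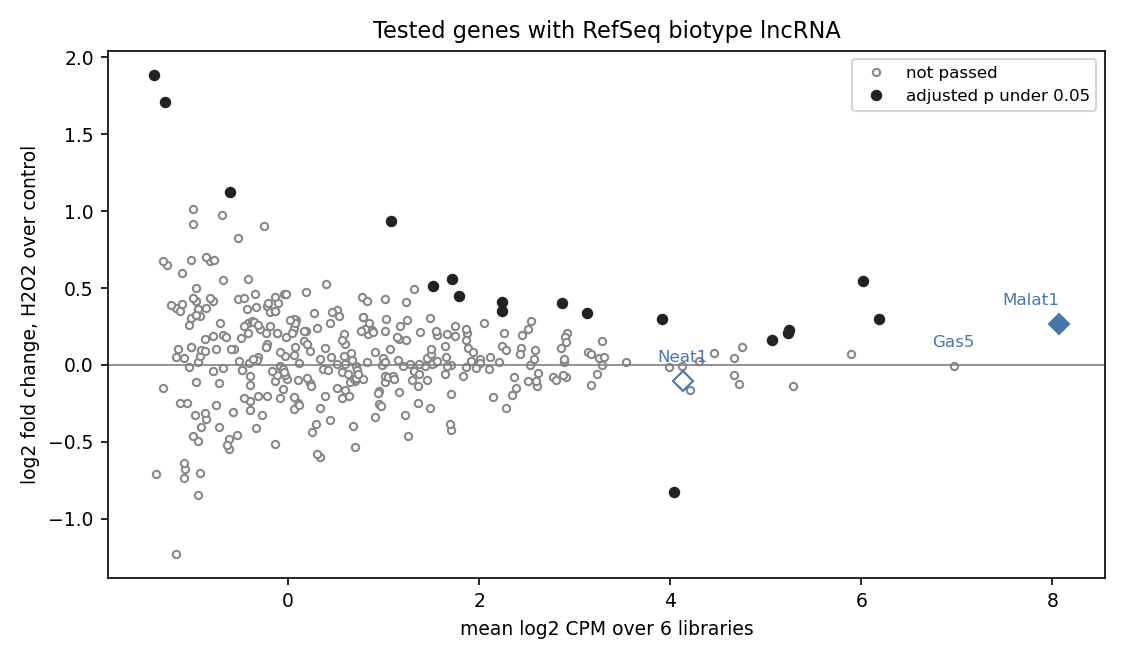
Mean log2 CPM over 6 libraries (horizontal axis) and log2 fold change (H2O2 over control, vertical axis) of the 359 tested genes with RefSeq type lncRNA, filled where the adjusted p was under 0.05. Malat1 lies farthest right at 0.27, and 18 filled points lie above 0 and 1 below.

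Malat1 ends without a poly(A) tail, and 2 further nuclear RNAs without one, chosen after their values were seen, are given beside it. They do not stand for RNAs without a tail as a group. Neat1, whose long transcript also has no tail, did not pass, with a log2 fold change of -0.10. Rpph1, the RNA of ribonuclease P, which trims the 5′ ends of tRNA precursors, had 2.51, 2.28 and 2.87 CPM in controls and 7.58, 6.7 and 8.5 CPM with H2O2. Every H2O2 library was above every control (log2 fold change 1.58, SE 0.132, edgeR adjusted p = 1.21e-09), although 73% of its bases lie under same-strand exons of a different gene. Rn7sk, the 7SK RNA that holds the elongation factor P-TEFb inactive, had 24.9, 24.7 and 22.6 CPM in controls and 38.9, 35.9 and 25.4 CPM with H2O2 (log2 fold change 0.47, SE 0.0938, edgeR adjusted p = 0.000602). Its H2O2 libraries were all above the controls, with H2O2 3 close to them; DESeq2 did not call it (adjusted p = 0.0641), and an offset for length and GC content lowered it to 0.27. The part of the tail selection of the libraries in the values of Malat1, Rpph1 and Rn7sk was not tested.

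Finally, the 3 genes whose log2 CPM followed each of the tested pair most closely over the 6 libraries were taken from 7949 candidates, with the correlation as a description. For Malat1 these were the DNA polymerase gene Poll (r = 0.990), the proliferation marker Mki67 (r = 0.989) and the transcription factor gene Trerf1 (r = 0.983). Mki67 had 800.2, 710.0 and 696 CPM in controls and 896, 837 and 799.7 CPM with H2O2, with control 1 level with H2O2 3 as for Malat1, and it was higher by the same test (log2 fold change 0.20, SE 0.0403, edgeR adjusted p = 0.000689; DESeq2 adjusted p = 0.058). Poll at 0.09 and Trerf1 at 0.13 did not pass (edgeR adjusted p = 0.282 and 0.0661). Over the 18 alternatives the adjusted p of Trerf1 ranged from 0.0125 to 0.221, so its missing call depends on the setting. For Neat1 they were the fatty acid transporter gene Slc27a1 (r = 0.995), the membrane protein gene Tmem63b (r = 0.988) and Kank3 (r = 0.981), none of which passed. In all 3, control 1 was the highest library, as it was for Neat1: Slc27a1 had 171 CPM there and 155 to 159.7 CPM in the other 5. The genes were chosen by this correlation, so the patterns they shared with Malat1 and Neat1, control 1 included, were fixed by the choice.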

How the data were processed

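The authors deposited raw HTSeq read counts, a table for each library with 1 row per gene symbol, made with bcl2fastq 2.17.1.14, cutadapt, STAR 2.5.3 and HTSeq on mm10, per the submitters' processing notes. The sources used here give neither annotation nor strand setting. The HTSeq summary classes were left out; reads with no feature made up 4.76 to 5.46% of all counted reads, ambiguous reads 3.17 to 3.3% and non-unique ones 11.0 to 11.7%. Counts were tested with edgeR's quasi-likelihood test (edgeR 4.0.16, R 4.3.3, TMM factors, filterByExpr, treatment only), adjusted by Benjamini-Hochberg over 12924 genes, threshold 0.05, after the scripts were tested on simulated counts. CPM are TMM-scaled counts. Positions, lengths and transcripts came from GENCODE M21, miRNAs from RefSeq, and 94.5% of tested genes had a length. For 3 libraries a group, 1 SD is the error given.

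The genes and companion lists were chosen with earlier results of these data known. Named genes were these 5, the passing list genes with the smallest p (up to 4 a list), neighbours, and the 3 genes most alike to each tested one at a mean log2 CPM of at least 4; Nono, Sfpq, Pspc1, Cdkn1c, Frmd8 and the cluster genes beside H19 and Meg3 were added for their role or place after their values were seen, and others are marked where named. Some genes that the rule names are not reported here. Alternatives were 4 other scalings, DESeq2 1.42.0, limma-voom 3.58.1, 2 other filters, a length and GC offset, a replicate block and leaving out each library. Added after seeing the data were leaving out both libraries numbered 1, the short Neat1 length and the list without Gm26917. The Malat1 to Neat1 read ratio with its permutation test was outside the written analysis plan. So were the RefSeq lncRNA class and the count of genes at a mean log2 CPM of at least 4.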

Additional observations from a re-analysis of the deposited data

How the results depend on the processing

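Malat1 kept its direction in all 18 alternatives, at 0.20 to 0.35 on the log2 scale, and its call in 17; with DESeq2 the genes called higher fell from 1 to 0. Without single libraries the count stayed at 1. Deviations of same-numbered libraries correlated at 0.00698, 0.0311 and -0.0191, beside -0.0373 to 0.0285 for libraries of different numbers. Counting error also enters these values, so they cannot settle whether the numbers mark a shared culture. With the replicate block Malat1 was 0.27 (SE 0.0287, against 0.0519 without it) and Neat1 -0.08 (SE 0.0931, against 0.114). The lists together then had 3 higher and 17 lower genes, and all tested genes 1294 higher and 1444 lower.

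The 5 companion lists together had 2 higher and 16 lower genes. Leaving out single libraries gave 1 to 4 higher and 6 to 12 lower; lower genes were 8 with upper-quartile factors, 10 with DESeq2 and 8 without both libraries numbered 1. Over all tested genes, single libraries left out gave 891 to 1178 higher and 924 to 1313 lower; all alternatives gave 744 to 1455 and 902 to 1488. The Malat1 to Neat1 ratio per length was 5.85 in controls and 7.53 with H2O2 on the short Neat1 transcript.

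Direction turned, with no call, for 4 genes. Without single libraries Neat1 ranged from -0.23 to 0.17, Kank3 from -0.0889 to 0.0363, Slc27a1 from -0.0395 to 0.0379 and Tmem63b from -0.0508 to 0.0374, each highest without control 1. Kank3, Slc27a1 and Tmem63b were chosen for following Neat1 over the libraries, so this shared turn follows from the choice. All 4 are given for completeness. Without both libraries numbered 1 they were 0.14, 0.015, 0.0307 and 0.0254. With the length and GC offset Slc27a1 was 0.0162 and Tmem63b 0.0081, and with the replicate block added 0.0173 and 0.0097. The causes were not tested. H19, with at most 13 reads in a library, and Meg3, with 0 reads in each, did not pass the filter on low counts.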
